A study of Mus musculus with 16 samples.

Results

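The genes described here are *Trp53*, which encodes the transcription factor p53, and 9 genes that p53 is known to activate: *Mdm2*, *Ccng1*, *Phlda3*, *Trp53inp1*, *Sesn2*, *Zmat3*, *Eda2r*, *Aen* and *Perp*. They were chosen by name as standard p53 targets of the mouse, leaving aside *Cdkn1a* and the Bcl2 family, and all 10 were found among the 24974 genes that both count tables list. The table of DP cells lists 24984 genes. The question put to these genes was whether their mRNA levels showed p53 activation after deletion of *Tox4*.

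p53 is made and degraded continuously in unstressed cells, because its own target *Mdm2* encodes the ubiquitin ligase that marks it for destruction. When DNA breaks or other stress is sensed, p53 protein accumulates and raises transcription of genes that stop the cell cycle, repair DNA, adjust metabolism or start apoptosis. In the thymus p53 is known for removing T cell precursors whose receptor gene rearrangement leaves unrepaired breaks, and its protein level is set mostly after translation, so that *Trp53* mRNA alone does not report its activity.

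Polyadenylated RNA was sequenced, keeping strand, from mouse thymocytes of 2 stages: DP cells, which carry both CD4 and CD8, and CD8 cells, a later stage. DP cells came from 3 control samples (genotype Tox4;F/F) and 3 cKO samples (Tox4;F/F;Lck+), and CD8 cells from 5 control samples (Tox4;F/F) and 5 cKO samples (Tox4;F/F;Lck-cre). Both genotypes carried loxP sites around exons 4 to 6 of *Tox4*, introduced on a C57BL/6 background, and only the cKO mice carried a Cre recombinase under the proximal *Lck* promoter, which is active from the DN3 stage of T cell development. The effects of Cre itself and of the loss of *Tox4* therefore cannot be told apart. Per the study's methods, the mice were sex-matched littermates aged 6 to 8 weeks. The labels do not say that the replicates of a group are separate mice. The study's reporting form calls them biological replicates and states that analyses began with 2 and gained others where those disagreed, without naming the samples, so the p-values given here measure the spread between these samples only.

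Fragments counted on genes numbered 16524506 to 18484568 in the DP control samples, 14583336 to 25981683 in the DP cKO samples, 9420085 to 13530783 in the CD8 control samples and 8514135 to 11828492 in the CD8 cKO samples. Levels of 1 gene across samples are given below as CPM, counts scaled to library size with TMM normalization over all 16 samples. Levels of different genes are compared as TPM, which also divides by the exonic length of the gene.

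*Tox4* (chr14:52279146-52295509, mm10) was measured at 149, 165 and 173 CPM in the DP control samples and at 128, 132 and 129 CPM in the DP cKO samples. All 3 DP cKO samples lay below all 3 DP control samples, at a log2 fold change of -0.32 ± 0.11 (estimate ± SE, n = 3 against 3, adjusted p = 0.381). In CD8 cells *Tox4* was at 195, 193, 205, 208 and 184 CPM in control samples and at 172, 190.3, 179, 239 and 168 CPM in cKO samples, and the groups overlapped (log2 fold change -0.056 ± 0.098, adjusted p = 0.979). The library labelled CD8 cKO replicate 4 had more *Tox4* mRNA than every CD8 control sample and went against its label on this measure. For *Psrc1*, *Cdkn1a* and *Phlda3*, given below, all CD8 cKO samples lay above all CD8 controls. This library is part of that observation, so these genes are no separate check of its label. Exons 4 to 6 make up 16.5% of the exonic length of *Tox4* (735 of 4458 bases), so counts over the whole gene check the deletion only in part.

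The cell type labels were checked against marker genes. *Cd4* was at 1834, 1454 and 1738 TPM in DP control samples, at 1797, 1571 and 1662 TPM in DP cKO samples, at 62.1, 70.9, 6.31, 3.64 and 10.7 TPM in CD8 control samples and at 69.7, 81.6, 6.78, 5.79 and 8.33 TPM in CD8 cKO samples, in the order of replicate numbers. *Cd8a* was at 1258 TPM or more in every sample of both stages. *Ccr7*, which is switched on in mature thymocytes, was at 48.6, 29.5 and 24.5 TPM in DP control and 17.1, 16.6 and 13.6 TPM in DP cKO samples, far below the CD8 samples given next. All DP cKO samples lay below all DP controls for *Ccr7* (log2 fold change -1.07 ± 0.23, adjusted p = 0.133), and likewise for *S1pr1* (-1.36 ± 0.42, adjusted p = 0.33) and *Il7r* (-1.0 ± 0.30, adjusted p = 0.328), also of mature thymocytes, for *Cd3g* (-0.33 ± 0.097, adjusted p = 0.311) and for *Cd8a* (-0.45 ± 0.14, adjusted p = 0.328). None of these 5 passed the test, and 7.2% of all genes had every DP cKO sample below every DP control. The T lineage list (*Cd3d*, *Cd3e*, *Cd3g* and *Lck*) summed to 4906 to 7584 TPM, and none of its genes was at 0 in any sample. These markers separated both stages as labelled.

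Some libraries stood apart within the CD8 cells. The samples numbered 1 and 2 of both genotypes held more *Cd4* mRNA than those numbered 3 to 5, and also more *Rag1*, a recombination gene of DP cells, at 43.4, 60.1, 10.8, 5.57 and 7.36 TPM in control samples and 37.2, 48.1, 12.1, 15.8 and 12.4 TPM in cKO samples. *Ccr7* was lower in the same 4 samples, at 596, 515, 1142, 1229.7 and 967 TPM in control and 521, 538, 1107, 1044 and 867 TPM in cKO samples. Both genotypes had 2 samples on 1 side of this split and 3 on the other. The split was noticed in these data, and the labels give no batch for it; whether the samples numbered 3 to 5 were made later is not given in the sources used here. Separately, CD8 control replicate 1 had counts on 17741 genes, whereas the other 4 CD8 controls had counts on 13708 to 14194. It also held 22 counts of *Foxn1* and 12 of *Psmb11*, genes of thymic epithelium, which were both at 0 in the other 4 controls and at no more than 3 counts in CD8 cKO samples, and 5 counts of the epithelial gene *Epcam*, the fewest of all 16 samples.

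Markers of other cells were at a small fraction of the T lineage level. B cell genes summed to 41.5 to 60.9 TPM in DP control and 39.8 to 44.6 TPM in DP cKO samples. They summed to 60.1 TPM in CD8 control replicate 1, 20.1 to 27.7 TPM in the other CD8 controls and 22.3 to 50.4 TPM in CD8 cKO samples. The B cell gene *Ms4a1* was at a log2 fold change of -1.68 ± 0.65 in DP cells (adjusted p = 0.456), with overlapping groups. The 7 myeloid genes summed to 61.2, 118 and 57.6 TPM in DP control and 53, 49.9 and 57.3 TPM in DP cKO samples, with *Lyz2* or *Cd68* the most abundant. Within this sum some genes lay apart by genotype in DP cells: all cKO samples were below all controls for *Lyz2* (log2 fold change -1.65 ± 0.44, adjusted p = 0.243), *Csf1r* (-1.25 ± 0.43, adjusted p = 0.388) and *C1qb* (-1.24 ± 0.38, adjusted p = 0.335) and above them for *Cd68* (0.63 ± 0.20, adjusted p = 0.346). None of these passed the test. For *Itgam*, *C1qa* and *Adgre1* the groups overlapped. Of all genes, 7.29% had every DP cKO sample above every DP control and 7.2% every one below. The myeloid sum was 31.1 to 82.5 TPM in CD8 samples, led by *Cd68* in every one. *Cd68* made up 39.3 of 49 TPM in CD8 control replicate 1 and 69.6 of 82.5 TPM in CD8 cKO replicate 2. It was at 32.8 ± 5.33 TPM in CD8 control and 48 ± 15.5 TPM in CD8 cKO samples (mean ± SD, n = 5 each), with overlapping ranges. Thymic epithelial genes summed to 1.21 to 12.1 TPM and were led by *Epcam* in all samples but CD8 control replicate 1, where *Foxn1* led, with the DP cKO samples below all DP controls for it (log2 fold change -0.60 ± 0.29, adjusted p = 0.592) and *Foxn1* at 0 in every DP sample. NK genes summed to 0.118 to 8.11 TPM, led by *Klrb1c*, which was also below all controls in the DP cKO samples but was not tested there, and erythroid genes stayed at or under 0.642 TPM with both globin genes of the list at 0 throughout. The stroma and endothelium list reached 120.1 to 286 TPM, almost entirely *Pecam1*, with *Col1a2* at 0 in 10 of 16 samples. In bulk samples a change in the share of a cell type and a change in the RNA per cell cannot be told apart.

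Cell division was read from the summed level of *Mki67*, *Top2a*, *Cdk1*, *Ccnb1* and *Ccna2*, since the genes that p53 raises include some that stop the cell cycle. It was 709, 705 and 417 TPM in DP control samples, 1133, 645 and 601 TPM in DP cKO samples, 176, 374, 277, 283 and 344 TPM in CD8 control samples and 316, 387, 268, 419 and 395 TPM in CD8 cKO samples. *Top2a* was the most abundant in every DP sample and *Mki67* in 8 of 10 CD8 samples. The groups overlapped in both stages. In cKO against control cells 5 of 5 of these genes had a positive log2 fold change in each stage, with medians of 0.35 in DP and 0.36 in CD8 cells, where 49.8% and 48.4% of all genes were positive. None of the 5 was called by edgeR (0.145% of all genes in DP and 0.098% in CD8 cells) or DESeq2 (1.36% and 0.472%), and none had an unadjusted p under 0.05 (9.18% and 5.6%).

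In control cells p53 and its targets covered a wide span of mRNA levels. In DP control samples *Trp53inp1*, which promotes autophagy and cell death, led with 752 ± 189 TPM (mean ± SD, n = 3), followed by *Trp53* at 276 ± 16.5 TPM, *Mdm2* at 154 ± 9.23 TPM and *Ccng1*, a cyclin that recruits a phosphatase to Mdm2, at 70.1 ± 13.8 TPM. The ranges of these 4 genes did not overlap. *Aen*, a nuclease that acts in apoptosis, *Zmat3*, an RNA-binding protein, and *Sesn2*, a stress sensor that restrains mTORC1 signalling, followed at 13.7 ± 2.42, 12.9 ± 2.45 and 12.5 ± 3.71 TPM, and were not separated from each other beyond their spread. *Phlda3*, which blocks Akt at the membrane, was at 4.08 ± 1.24 TPM and *Perp*, a membrane protein of desmosomes that also takes part in apoptosis, at 1.47 ± 1.21 TPM, again with overlapping ranges.

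In CD8 control samples the order began with *Trp53* at 539 ± 96.5 TPM (mean ± SD, n = 5), then *Trp53inp1* at 274 ± 39.9 TPM, *Mdm2* at 158 ± 25.3 TPM and *Ccng1* at 87.3 ± 11.6 TPM, with no overlap between neighbours. *Zmat3* at 24.6 ± 5.42 and *Aen* at 21.1 ± 1.84 TPM overlapped, and *Sesn2* was at 12.9 ± 2.19 TPM. *Phlda3* at 1.38 ± 0.546 TPM overlapped with *Perp* at 1.07 ± 0.508 TPM. *Eda2r*, a receptor of the TNF receptor family, had 0 counts in all 8 control samples and in 13 of 16 samples. Its 6 counts in all lay in cKO libraries, 4 and 1 in DP replicates 1 and 3 and 1 in CD8 replicate 5. In the 8 control samples a count of 0 allows a level of up to 0.162 to 0.318 CPM (3 counts of the total, without TMM scaling), so *Eda2r* was not detectable at this depth in the control samples. The libraries carry no molecular identifiers, so such limits and the intervals given here cover counting error and the spread between samples, and not losses in amplification.

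**Figure D1:**
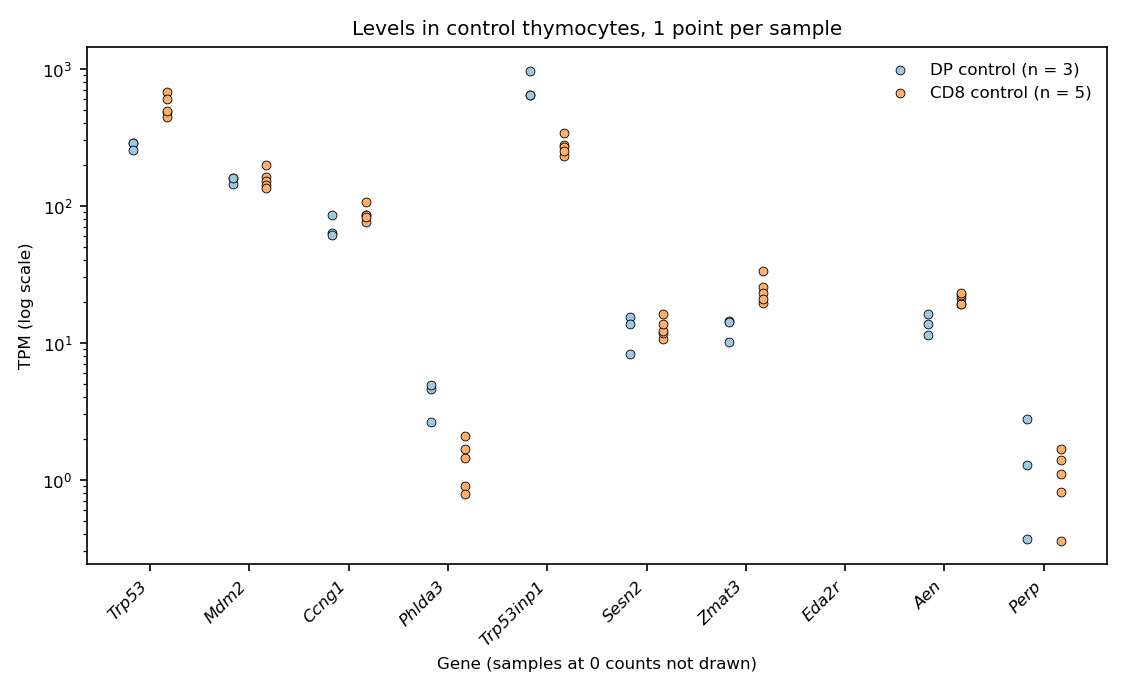
Levels of the 10 genes in control samples in TPM (log axis), 1 point per sample, for DP (n = 3) and CD8 (n = 5). *Trp53inp1* leads in DP samples and *Trp53* in CD8 samples, and *Eda2r* has no point because all its counts were 0.

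RefSeq promoter windows (GRCm38, 250 bases before to 50 after a start site) were found for 7 of the 10 genes; *Trp53inp1*, *Zmat3* and *Perp* were not matched. They were searched on both strands for the p53 half-site, the decamer that p53 binds in pairs, which 2745 of 32851 mouse promoters held (8.36%). It was present in the windows of *Trp53*, *Mdm2*, *Ccng1* and *Aen*. A pair of half-sites at most 13 bases apart, with at most 2 mismatches outside the core C and G, was held by 1342 of 32851 promoters (4.08%) and among these genes by *Ccng1*, 195 to 176 bases before the start, with 1 mismatch and no spacer. *Ccng1*, *Mdm2* and *Phlda3* are shown because their values are compared most closely below; capitals mark the pair in *Ccng1* (chr11:40755237-40755536, minus strand) and the single half-site in *Mdm2* (chr10:117710709-117711008, minus strand), and *Phlda3* (chr1:135765835-135766134, plus strand) had no match in this window.
Ccng1: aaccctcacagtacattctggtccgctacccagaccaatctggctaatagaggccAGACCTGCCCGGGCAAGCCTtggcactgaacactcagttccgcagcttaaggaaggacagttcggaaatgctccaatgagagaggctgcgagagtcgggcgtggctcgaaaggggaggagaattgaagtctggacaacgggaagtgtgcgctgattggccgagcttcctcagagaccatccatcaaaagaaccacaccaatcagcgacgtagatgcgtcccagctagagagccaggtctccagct
Mdm2: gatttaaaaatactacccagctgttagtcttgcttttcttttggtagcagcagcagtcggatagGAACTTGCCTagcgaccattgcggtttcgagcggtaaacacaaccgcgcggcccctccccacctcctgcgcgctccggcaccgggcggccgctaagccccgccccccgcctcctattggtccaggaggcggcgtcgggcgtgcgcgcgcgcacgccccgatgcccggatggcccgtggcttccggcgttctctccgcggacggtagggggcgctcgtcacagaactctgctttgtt
Phlda3: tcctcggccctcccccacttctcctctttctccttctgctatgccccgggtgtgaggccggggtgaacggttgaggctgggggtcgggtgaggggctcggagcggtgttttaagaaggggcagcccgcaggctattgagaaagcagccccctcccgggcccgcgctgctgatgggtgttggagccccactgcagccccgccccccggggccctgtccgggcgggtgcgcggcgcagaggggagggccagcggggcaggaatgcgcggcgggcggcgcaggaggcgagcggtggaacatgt
A match is a description of letters and not a bound site, and p53 also acts through sites outside such windows, as in the first intron of *Mdm2*.

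In DP cells 0 of the 9 genes tested passed the test in cKO against control samples. A gene was called at an adjusted p under 0.05 (edgeR quasi-likelihood test, Benjamini-Hochberg over all genes), a change of 1.5-fold or more, and a mean level of 1 TPM or more, and 17 of 11748 genes met all 3 (0.145%). None of the 9 had an unadjusted p under 0.05, which 9.18% of all genes had, and DESeq2 called none of them while calling 1.36% of all genes. With the replicate number as a block, 131 of 11748 genes were called (1.12%), again 0 of the 9, with 4 of them at an unadjusted p under 0.05, where 16.5% of all genes were. Their log2 fold changes were positive in 5 and negative in 4, with a median of 0.026 against -0.0011 over all genes tested. *Eda2r* did not pass the filter on low counts.

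*Trp53* (chr11:69580359-69591873, plus strand) was at 171, 185 and 165 CPM in the DP control samples and at 183, 158 and 189.8 CPM in the DP cKO samples. The groups overlapped fully. The log2 fold change was 0.026 ± 0.11 (adjusted p = 0.968), and its 95% interval ran from 0.856-fold to 1.21-fold. *Mdm2* (chr10:117688875-117710758, minus strand), the feedback inhibitor of p53, was at 157, 154 and 171 CPM in control and 167, 162 and 144 CPM in cKO samples. Here too the groups overlapped, and the 95% interval of 0.817-fold to 1.18-fold ended short of 1.5-fold in either direction (log2 fold change -0.028 ± 0.12, adjusted p = 0.967). *Mdm4*, the relative of *Mdm2* that holds p53 inactive, was at 702, 667 and 725 CPM in control and 648, 634 and 560.0 CPM in cKO samples. All DP cKO samples lay below all controls for *Mdm4*, at a log2 fold change of -0.18 ± 0.11 (adjusted p = 0.681). The same arrangement was found in 7.2% of all genes tested.

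*Phlda3* (chr1:135766085-135769134, plus strand) was at 1.25, 2.35 and 2.49 CPM in DP control samples, from 22, 45 and 44 counts, and at 2.5, 3.78 and 4.06 CPM in DP cKO samples, from 55, 59 and 105 counts. The lowest cKO sample lay just above the highest control sample, so that the groups did not overlap. Among all genes tested the cKO samples lay above all control samples in 7.29% and below in 7.2%, so 1 of 9 is close to that share. The log2 fold change of *Phlda3* was 0.76 ± 0.36 (adjusted p = 0.589), with a 95% interval of 0.963 to 2.96-fold.

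Among the apoptosis genes, *Aen* was at 22.2, 20.1 and 28.5 CPM in DP control samples and 35.8, 24 and 31.2 CPM in DP cKO samples, with the groups overlapping (log2 fold change 0.36 ± 0.19, adjusted p = 0.622). *Trp53inp1* was at 1686, 1218 and 1192 CPM in control and 1335, 1138 and 912 CPM in cKO samples (log2 fold change -0.27 ± 0.18, adjusted p = 0.722). *Perp* rested on 4, 16 and 32 counts in control and 1, 20 and 29 counts in cKO samples, with samples of the same group far apart and a 95% interval of 0.203 to 3.46-fold. *Ccng1* was at 95.9, 76.4 and 73.4 CPM in control and 82.6, 61.5 and 61.2 CPM in cKO samples, also overlapping (log2 fold change -0.26 ± 0.16, adjusted p = 0.696). Between samples of the same number, *Phlda3* and *Aen* were higher in the cKO sample in 3 of 3 pairs, and *Ccng1* and *Trp53inp1* lower in 3 of 3 pairs. Of all genes 18.1% were higher and 20.2% lower in every pair, so 2 of 9 in either direction is close to those shares. In the fit with the replicate number as a block these were the 4 genes at an unadjusted p under 0.05, at adjusted p-values of 0.218, 0.245, 0.213 and 0.188 in that order. *Sesn2*, at 7.08 to 14.2 CPM in DP samples, and *Zmat3*, at 27.1 to 44.7 CPM, had log2 fold changes of 0.045 ± 0.25 and 0.056 ± 0.20.

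**Figure D2:**
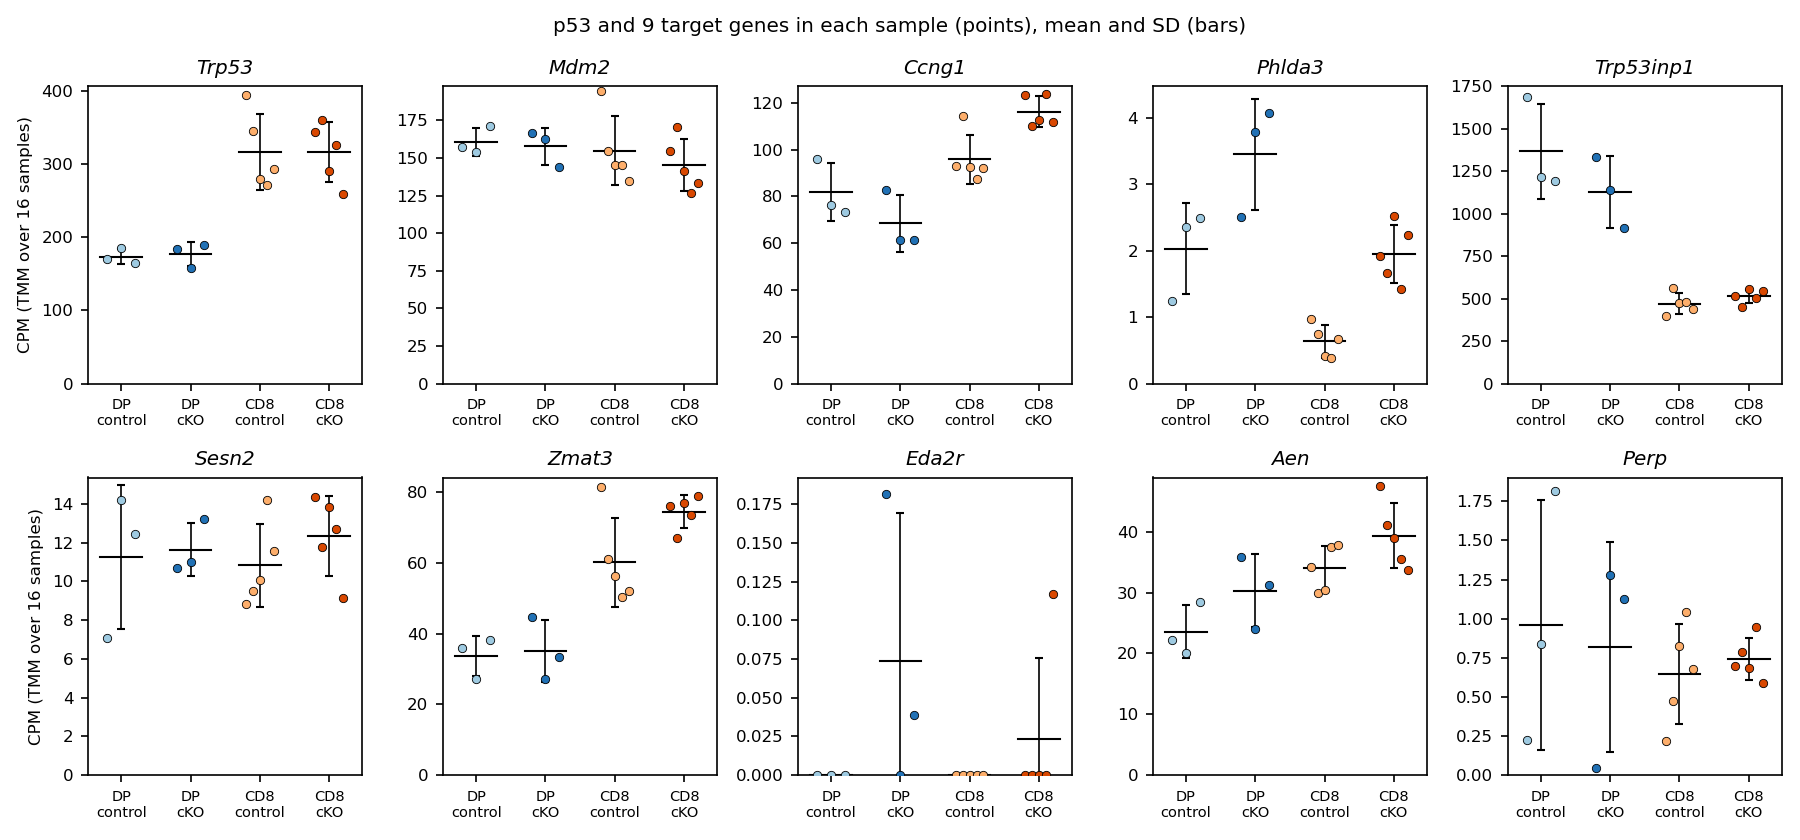
CPM of each of the 10 genes in every sample (points), with mean and SD (bars), in DP control and cKO (n = 3 each) and CD8 control and cKO (n = 5 each) samples. *Phlda3* is the gene whose cKO samples lie above all control samples in both stages, at 2.50 to 4.06 CPM in DP and 1.42 to 2.52 CPM in CD8 cells. In CD8 cells it passed the filter on low counts only through those samples.

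In CD8 cells 0 of the 8 genes tested were called by edgeR, where 11 of 11227 genes were (0.098%). Of the 8, 3 (*Phlda3*, *Ccng1* and *Zmat3*) had an unadjusted p under 0.05, where 5.6% of all genes did. DESeq2 called 0.472% of all genes and 1 of the 8, *Phlda3*. That gene was tested only because its cKO samples passed the filter on low counts, so its call and the counts over the 8 lend no support to a difference. The median log2 fold change of the 8 was 0.20, against -0.0060 over all genes tested, with 6 positive and 2 negative. *Eda2r* and *Perp* did not pass the filter on low counts, *Perp* with 2, 5, 8, 11 and 9 counts in control and 8, 9, 6, 8 and 5 counts in cKO samples.

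*Phlda3* was at 0.967, 0.752, 0.411, 0.379 and 0.677 CPM in the CD8 control samples, from 9, 8, 4, 4 and 9 counts, and at 1.91, 1.66, 2.52, 1.42 and 2.23 CPM in the CD8 cKO samples, from 22, 19, 22, 12 and 19 counts. Every cKO sample lay above every control sample. This arrangement was found in 0.882% of the genes tested, and the reverse in 0.686%. *Phlda3* passed the filter on low counts, set at 0.962 CPM without TMM scaling, only through the cKO samples, 5 of 5 against 0 of 5 control samples. A gene let in this way had to differ, so its fitted values are a description: 3.01-fold (95% interval 1.75 to 5.17), a log2 fold change of 1.59 ± 0.36, with an adjusted p of 0.161 by edgeR and 0.0374 by DESeq2. In the fit without a filter the log2 fold change was 1.6 (adjusted p = 0.436). Without CD8 control replicate 1 its log2 fold change was 1.78 (adjusted p = 0.102), and without the library labelled CD8 cKO replicate 4 it was 1.68 (adjusted p = 0.146). As every cKO sample lay above every control, this also holds within the samples numbered 1 and 2 and within those numbered 3 to 5. It adds no support.

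*Ccng1* (chr11:40748552-40755286, minus strand), the gene with the paired half-sites shown above, was at 93.1, 114, 92.6, 87.5 and 92.2 CPM in CD8 control samples and 123, 110.1, 113, 124 and 112 CPM in CD8 cKO samples. All cKO samples lay above 4 of the 5 controls, and control replicate 2 lay among them. The log2 fold change was 0.27 ± 0.088, or 1.21-fold (95% interval 1.06 to 1.38), at an unadjusted p of 0.00744 and an adjusted p of 0.49. *Zmat3* was at 81.5, 61.1, 56.3, 50.3 and 52 CPM in control and 76.2, 67.2, 77.1, 73.5 and 78.9 CPM in cKO samples. Here control replicate 1, the library with the most genes detected and with *Foxn1* counts, lay above all cKO samples and the other 4 controls lay below them. Its fold change was 1.23 (95% interval 1.01 to 1.5, adjusted p = 0.866), and without that library the log2 fold change moved from 0.30 to 0.45 (adjusted p = 0.0986). For both genes the groups overlapped within the samples numbered 1 and 2, and every cKO sample lay above every control sample within those numbered 3 to 5. That split was noticed in these data, and the share of all genes arranged in this way was not computed. In DP cells, also 3 against 3, 7.29% of all genes had every cKO sample above every control. The arrangement adds no support. Why CD8 control replicate 1 differed was not tested.

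*Trp53* in CD8 cells was at 395, 346, 279.8, 272 and 294 CPM in control and 345, 361, 291, 327 and 259 CPM in cKO samples. The groups overlapped, with control replicate 1 the highest of all. The log2 fold change was -0.010 ± 0.12 (95% interval 0.825 to 1.19-fold, adjusted p = 0.999), and 0.095 without control replicate 1. *Mdm2* was at 194, 155, 145, 145 and 135 CPM in control and 155, 171, 141, 126 and 134 CPM in cKO samples, overlapping, with control replicate 1 again the highest. Its log2 fold change was -0.098 ± 0.12 (95% interval 0.786 to 1.11-fold, adjusted p = 0.979), and 0.011 without that library. *Mdm4* was at 519 to 628 CPM in control and 428 to 640.2 CPM in cKO samples, at a log2 fold change of -0.047 ± 0.11. Neither p53 nor its main inhibitors thus passed the test at the mRNA level, and each interval for *Trp53* and *Mdm2* ended short of 1.5-fold.

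The other 3 tested genes had positive log2 fold changes in CD8 cells with overlapping groups. *Aen* was at 34.2, 29.9, 30.4, 37.6 and 37.8 CPM in control and 47.5, 41.2, 39, 35.5 and 33.8 CPM in cKO samples (log2 fold change 0.21 ± 0.12, adjusted p = 0.959). *Trp53inp1* was at 395, 561, 473, 478 and 437 CPM in control and 515, 451, 554, 502 and 542 CPM in cKO samples (0.13 ± 0.098, adjusted p = 0.979). *Sesn2* was at 8.81, 9.5, 10.1, 14.2 and 11.6 CPM in control and 14.4, 11.8, 13.9, 12.7 and 9.16 CPM in cKO samples (0.19 ± 0.17, adjusted p = 0.979).

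**Figure D3:**
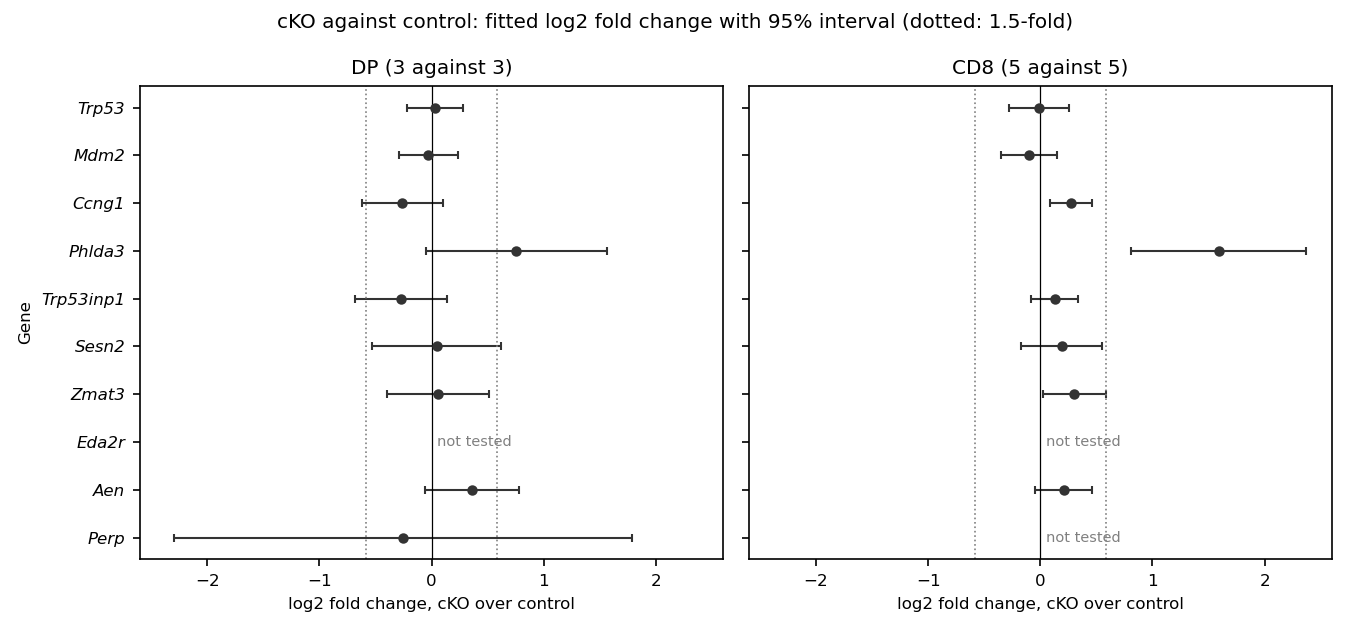
Log2 fold changes of cKO over control samples from edgeR with 95% intervals for the 10 genes, in DP (3 against 3, left) and CD8 cells (5 against 5, right); dotted lines mark 1.5-fold in either direction. The intervals of *Trp53* and *Mdm2* lie inside the dotted lines in both stages, and that of *Phlda3* runs from 0.81 to 2.37 in CD8 cells, where the gene passed the filter on low counts only through its cKO samples.

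The difference between the cKO effects of CD8 and DP cells was tested as an interaction. None of the 9 genes tested passed an adjusted p of 0.05 by edgeR, where 13 of 12131 genes did (0.107%), and none passed by DESeq2, where 0.305% of genes did. Of the 9, 1 had an unadjusted p under 0.05 by edgeR, where 5.27% of all genes did. This was *Ccng1*, with log2 fold changes of -0.26 in DP and 0.27 in CD8 cells and a difference of 0.53 ± 0.17 (95% interval 0.17 to 0.89, unadjusted p = 0.00627, adjusted p = 0.656). For *Phlda3* the difference was 0.83 ± 0.51 (95% interval -0.24 to 1.91, adjusted p = 0.95) and for *Trp53inp1* 0.40 ± 0.20 (95% interval -0.021 to 0.82, adjusted p = 0.95). The median difference of the 9 was 0.24, against -0.012 over all genes tested. No difference between the stages was shown for any of these genes, and the intervals include differences in size of more than 1.5-fold for *Ccng1*, *Phlda3* and *Trp53inp1*.

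*Cdkn1a*, which encodes the CDK inhibitor p21 and is often read for p53 activity, was at 1.08, 2.14 and 1.36 CPM in DP control, 5.73, 2.76 and 3.87 CPM in DP cKO, 1.72, 0.658, 0.719, 2.08 and 1.5 CPM in CD8 control and 4.79, 3.23, 4.24, 3.91 and 3.64 CPM in CD8 cKO samples. Its groups did not overlap in either stage, at 2.68-fold in DP (adjusted p = 0.245 by edgeR and 0.0499 by DESeq2) and 2.93-fold in CD8 cells (adjusted p = 0.126 by edgeR and 0.00252 by DESeq2). In CD8 cells *Cdkn1a* passed the filter on low counts in 5 of 5 cKO samples and 3 of 5 controls, so its values there are a description. Of all genes, 7.29% in DP and 0.882% in CD8 cells had every cKO sample above every control. DESeq2 called 1.36% and 0.472% of all genes. The adjusted p of *Cdkn1a* was under 0.05 in 1 of 14 alternative settings in DP and 2 of 18 in CD8 cells.

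A list of 30 other p53 targets was read in the same way, and 26 were tested in each stage. In DP cells 0 rose and 0 fell by edgeR (0.145% of all genes called), with 5 at an unadjusted p under 0.05 (9.18% of all genes), all 5 with positive log2 fold changes. DESeq2 called 1 of the 26, *Pidd1*, and 1.36% of all genes. Their median log2 fold change was 0.022, against -0.0011 over all genes tested, and the cKO samples lay above all controls in 5 of the 26 and below in 3, against 7.29% and 7.2% of all genes. *Pidd1*, a death domain protein of the apoptosis machinery, was among the largest, at 36.8, 40.6 and 31.9 CPM in control and 67.9, 42.9 and 63.5 CPM in cKO samples. Its groups did not overlap, at 1.59-fold (log2 fold change 0.67 ± 0.18, adjusted p = 0.242). The noncoding *Pvt1* had the largest fold change, 2.24-fold (adjusted p = 0.453), from 0.453, 0.314 and 0.794 CPM in control and 1.23, 1.03 and 1.24 CPM in cKO samples, and its mean of 0.485 TPM was under the threshold of the call. *Pvt1* passed the filter on low counts in 3 of 3 cKO samples and 1 of 3 controls, so it was let in through the group where it was higher. Its values are a description, and it is 1 gene of each count of 5 above. At the other end were the antiproliferative gene *Btg2*, at 578, 265 and 285 CPM in control and 414, 199 and 186 CPM in cKO samples (log2 fold change -0.50 ± 0.37, adjusted p = 0.753), and the kinase gene *Plk2* (-0.52 ± 0.55, adjusted p = 0.846), both with overlapping groups. In the fit with the replicate number as a block 0 of the 26 were called, where 1.12% of all genes were, and 9 were at an unadjusted p under 0.05 (16.5% of all genes), 6 positive and 3 negative. *Btg2*, lower in the cKO sample of all 3 pairs, passed the adjusted p in this fit at less than 1.5-fold (log2 fold change -0.51 ± 0.086, adjusted p = 0.0293). So did *Ddit4*, whose product restrains mTORC1, at 139, 105 and 138 CPM in control and 205, 143 and 204 CPM in cKO samples (log2 fold change 0.52 ± 0.086, adjusted p = 0.024 with the block and 0.34 without).

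In CD8 cells 1 of 26 rose and 0 fell by edgeR (0.098% of all genes called), with 4 at an unadjusted p under 0.05 (5.6% of all genes), all 4 positive. DESeq2 called 2 of the 26, *Psrc1* and *Dglucy*, and 0.472% of all genes. The gene that rose was *Psrc1*, which encodes a microtubule-binding protein of the mitotic spindle. It was at 3.33, 2.35, 1.85, 1.89 and 2.56 CPM in control and 8.36, 6.46, 7.68, 7.71 and 6.1 CPM in cKO samples, and the lowest cKO sample was well above the highest control. The fold change was 3.01 (95% interval 2.16 to 4.2, log2 fold change 1.59 ± 0.22, adjusted p = 0.00984), higher in 5 of 5 cKO samples. The call was lost without CD8 control replicate 3 (adjusted p = 0.0522) and was otherwise kept over the 19 alternative settings, at adjusted p-values down to 8.25e-08. In DP cells *Psrc1* was at 11, 13.1 and 7.09 CPM in control and 15.8, 14.2 and 16.9 CPM in cKO samples, also without overlap (log2 fold change 0.59 ± 0.22, adjusted p = 0.443), and the difference between the stages was 1.0 ± 0.31 (adjusted p = 0.599).

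*Dglucy*, which encodes a mitochondrial D-glutamate cyclase, came next in CD8 cells. It was at 14.5, 13.1, 11.2, 12.6 and 10.5 CPM in control and 23.2, 16.4, 21.2, 20.4 and 21.7 CPM in cKO samples, with no overlap, at 1.66-fold (log2 fold change 0.73 ± 0.14, adjusted p = 0.0955). Of the 26 genes 3 (*Psrc1*, *Dglucy* and *Gtse1*) had every cKO sample above every control and 0 had every one below, against 0.882% and 0.686% of all genes; *Gtse1* is named here because its values were seen. Lowest was *Tigar*, a regulator of glycolysis, at -0.19 ± 0.15 (adjusted p = 0.979). The median of the 26 was 0.14, against -0.0060 over all genes tested, with 15 positive and 11 negative. *Dcxr*, *Gdf15*, *Ak1* and *Trp53cor1* were not tested in either stage. The cell cycle genes of the CD8 cKO samples are given above, and *Psrc1* and *Gtse1* are expressed mostly in dividing cells; the part of cell division in their values was not tested.

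**Figure D4:**
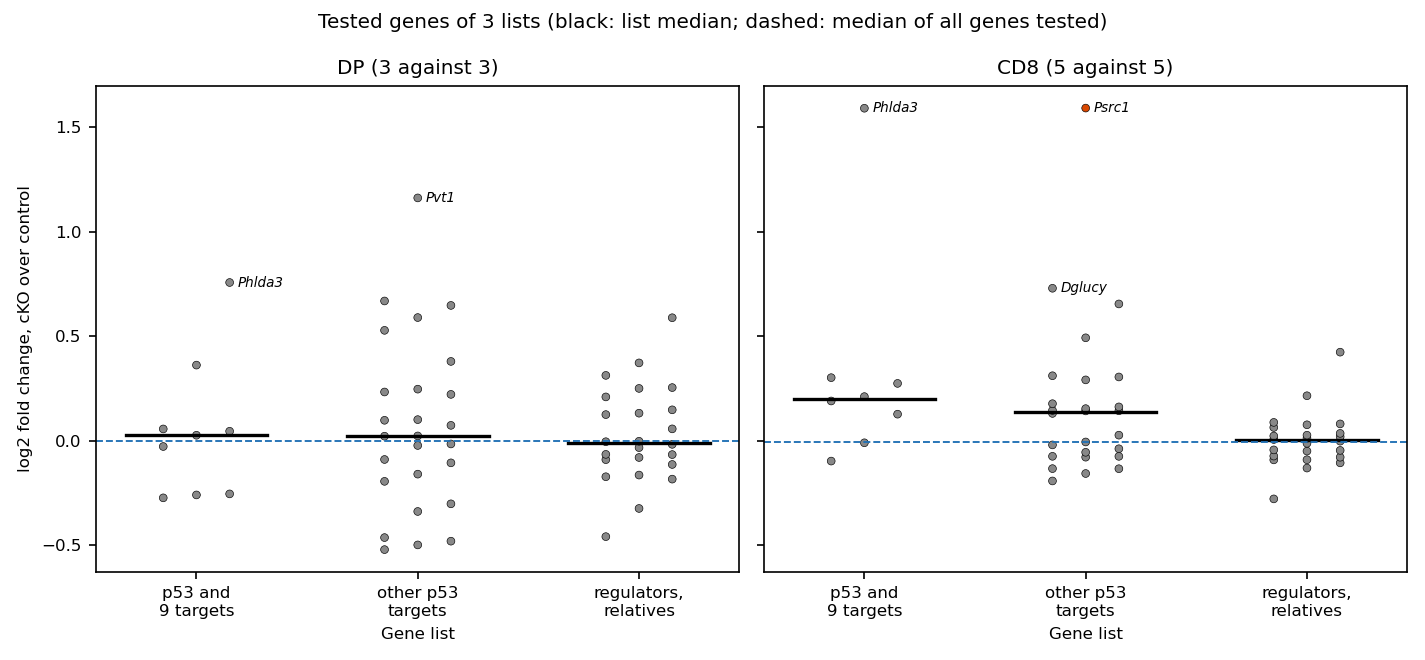
Log2 fold changes of cKO over control for the tested genes of 3 lists, in DP (left) and CD8 cells (right): p53 with 9 targets, 26 other p53 targets, and 24 regulators and relatives of p53. Black bars are list medians and the dashed line the median of all genes tested; *Psrc1* in CD8 cells (orange) is the gene that was called.

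Regulators and relatives of p53 formed the other list, 27 genes such as the damage kinases *Atm* and *Chek2*, the acetyltransferases *Kat5* and *Ep300* and the ribosomal proteins *Rpl5* and *Rpl11* that bind Mdm2. In DP cells 0 of 24 tested rose and 0 fell by edgeR (0.145% of all genes called), with 1 at an unadjusted p under 0.05 (9.18% of all genes) and a median log2 fold change of -0.011. In CD8 cells 0 of 24 rose and 0 fell (0.098% of all genes called), with 0 at an unadjusted p under 0.05 (5.6% of all genes) and a median of 0.0014. The largest negative value in CD8 cells was that of *Rpl11*, -0.28 ± 0.20 (adjusted p = 0.979). DESeq2 called 0 of the 24 in either stage, where it called 1.36% of all genes in DP and 0.472% in CD8 cells. With the block 0 of the 24 were called in DP cells, and 2 were at an unadjusted p under 0.05 (16.5% of all genes). *Cdkn2a*, *Trp63* and *Trp73* were not tested.

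**Figure D5:**
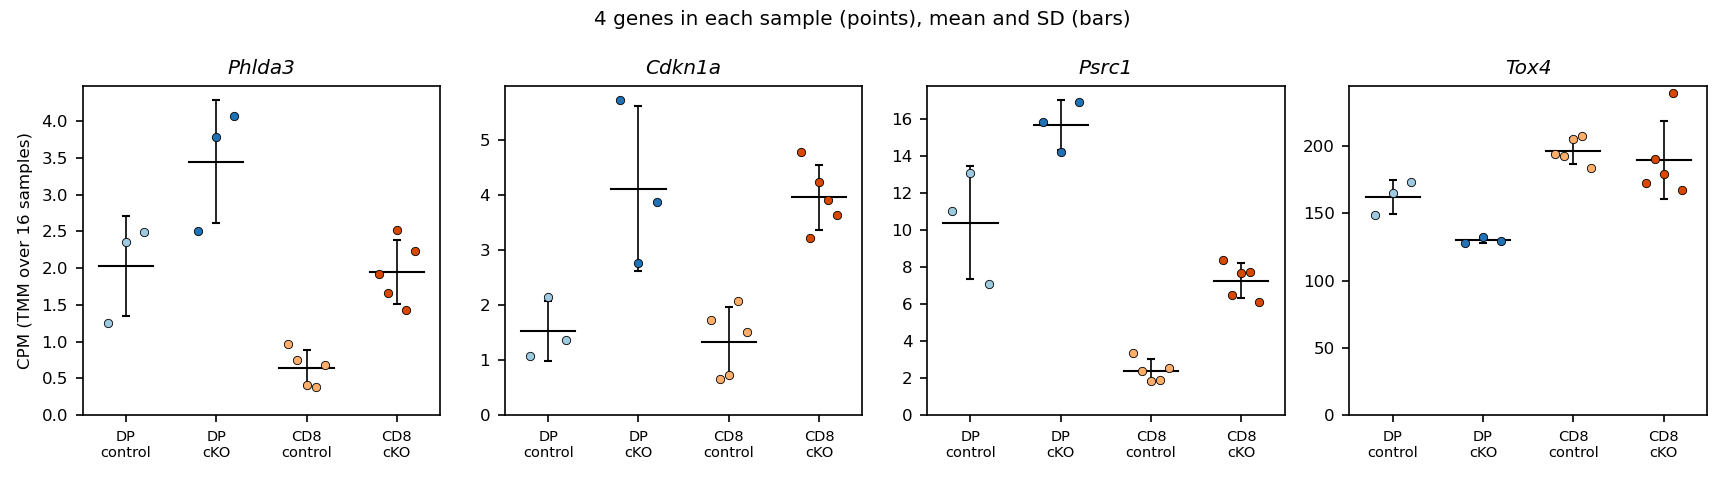
CPM of *Phlda3*, *Cdkn1a*, *Psrc1* and *Tox4* in every sample (points), with mean and SD (bars), in DP (n = 3 each) and CD8 (n = 5 each) control and cKO samples. The cKO samples of the 3 p53 targets shown lie above all control samples in both stages, as for 7.29% of all genes in DP and 0.882% in CD8 cells. Among the 26 other targets tested, *Psrc1* included, this held for 5 in DP and 3 in CD8 cells. In CD8 cells *Phlda3* passed the filter on low counts only through its cKO samples, and *Cdkn1a* passed it in 3 of 5 controls. *Tox4* separates the genotypes in DP cells only.

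In control CD8 against control DP cells 2 of 9 genes tested were higher and 2 lower by the same thresholds. Of 12131 genes 21.1% were higher and 22.9% lower, so the counts of the 9 were close to those shares. The median log2 difference of the 9 was -0.062, against -0.030 over all genes. Stage and count table change together here, so that a stage difference and a difference between the sequencing of both tables cannot be told apart.

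*Trp53* was 1.82-fold higher in CD8 cells (log2 difference 0.86 ± 0.14, adjusted p = 2.72e-05), and *Zmat3* was 1.78-fold higher (log2 difference 0.83 ± 0.18, adjusted p = 0.000561). *Trp53inp1* was 2.93-fold lower (log2 difference -1.55 ± 0.14, adjusted p = 2.66e-08) and *Phlda3* 3.18-fold lower (log2 difference -1.67 ± 0.38, adjusted p = 0.000898). For these 4 genes the control samples of both stages did not overlap. *Phlda3* had only 4 to 9 counts in the CD8 controls. In the fits of 1 stage, 0 of 5 CD8 controls passed the filter on low counts for it, against 3 of 3 DP controls. Its values here are therefore a description, and it is 1 of the 2 lower genes. *Zmat3* was at 35.9, 27.1 and 38.1 CPM in the DP controls, and the other values are given above. Together with *Aen*, at 1.43-fold (adjusted p = 0.009, under the fold threshold), 3 of 9 genes had every CD8 control above every DP control and 2 of 9 every one below, where 26.7% and 28.9% of all genes did. Without CD8 control replicate 1 the log2 difference of *Trp53* was 0.76 and that of *Zmat3* 0.69. *Mdm2*, at -0.062 ± 0.12 (95% interval 0.799 to 1.15-fold), *Ccng1*, *Sesn2* and *Perp* did not pass the test.

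Among the 26 other targets tested, 6 were higher and 11 lower in CD8 control cells, where 21.1% of all genes were higher and 22.9% lower, with a median log2 difference of -0.047. Of the 5 cell cycle genes 0 were higher and 4 lower in this comparison, with a median log2 difference of -1.74. The part of cell division in the values of the targets was not tested. *Pvt1* was 23.1-fold higher (adjusted p = 1.50e-09) and *Ephx1*, a detoxifying epoxide hydrolase, 5.36-fold higher (adjusted p = 3.05e-10). *Pvt1* rested on 6 to 14 counts in the DP controls. In the fits of 1 stage it passed the filter on low counts in 1 of 3 DP controls and 5 of 5 CD8 controls. Its fold change is therefore a description, and it is 1 of the 6 higher genes. *Psrc1* was 4.35-fold lower (adjusted p = 1.93e-07), *Rps27l* 4.5-fold lower (adjusted p = 1.36e-06; uncertain, since fragments may be shared with close copies of its family) and *Plk2* 3.2-fold lower (adjusted p = 0.00409). Of the 24 regulators, 9 were higher and 4 lower, against the same shares of all genes, with a median of 0.29, and the kinase gene *Hipk2*, whose product phosphorylates p53, was 9.46-fold higher (adjusted p = 8.96e-11). *Mdm4* was at a log2 difference of -0.30 ± 0.12 (adjusted p = 0.0338), under the fold threshold, and its adjusted p was under 0.05 in 13 of 22 alternative settings, with 0.102 the highest.

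The genes whose levels moved most like those of *Trp53* from sample to sample were named by the correlation of their deviations from the group means of log2 CPM over the 16 samples. Of 12130 genes these were *Ywhae* (Pearson r = 0.968), *Dcakd* (0.936), *Cnot3* (0.936), *Tsg101* (0.929) and *Polr2a* (0.92). The samples share 2 count tables and differ in depth, the values are a description, and CD8 control replicate 1, the highest in *Trp53*, is among the points.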

How the data were processed

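The authors filtered reads with fastp (0.13.1), aligned them with HISAT2 (2.1.0) and counted fragments per gene with strand by featureCounts (1.6.1), per the labels and methods, to mm10, which the methods name for DP cells only. They deposited raw counts, with replicates kept apart. The deposited length of each gene, in bases, and its position came from the table of DP cells and were carried to CD8 cells by symbol. The columns of CD8 cells named Ctrl were taken as the control samples of the same number.

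Levels (CPM and TPM), fold changes and tests were all computed for this report from those counts. Counts were tested with edgeR (4.0.16, R 4.3.3) by the 2-sided quasi-likelihood test, with TMM, filterByExpr and Benjamini-Hochberg adjustment over all genes tested. Each cKO against control fit held the samples of 1 stage, so fitted fold changes differ slightly from ratios of the CPM shown. The stage comparison and the interaction used all 4 groups. DESeq2 (1.42.0) was an alternative, as were RLE and upper-quartile normalization, a replicate block, no filter, at least 10 counts in every sample, all 4 groups in 1 fit, adjusted p alone and each sample left out. Chosen after seeing the data were DESeq2 with the block and a CD8 fit that leaves out replicate 1 of both genotypes. Tests were run on simulated counts before use.

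The members and lists were chosen with earlier results of these data known. Named by rule were the 10 genes, *Mdm4*, *Cdkn1a* and *Tox4*, every gene of the other lists past an adjusted p of 0.05 in the genotype comparisons, the 2 largest and 2 smallest fold changes of both lists together in each stage, the 3 largest and 3 smallest between stages, and the 5 genes most like *Trp53*. *Gtse1* and *Ddit4* were named after their values were seen. Sums of 3 of the 10 marker lists are not reported here.

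The labels number the replicates alike in both genotypes. After the group means were taken off, DP samples of the same number correlated at 0.116 to 0.65 in the 3 pairs (mean 0.354), against -0.483 to 0.328 between other numbers (mean -0.169). Each pair was over 0.1, the rule used, so the numbers were taken to pair the DP samples, although 2 of 6 samples correlated best with their own number.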

Additional observations from a re-analysis of the deposited data

Results flagged for a closer look

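Of 19 groups of 5 samples checked for a sample far from the others, 2 had 1, and about 0.95 would by chance (1 in 20). *Ccng1* in CD8 control replicate 2 was at 114 CPM, with 93.1 CPM the nearest of the other controls, a gap of 0.793 of the group's range. *Eda2r* in CD8 cKO replicate 5 was at 0.117 CPM, a single count, with the other 4 samples at 0 and a gap of 1 time the range.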

How the results depend on the processing

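The number of p53 and target genes called in CD8 cells went from 0 to 1 with DESeq2, which called *Phlda3*; the cause was not tested. With the replicate number as a block it was 0 in DP cells, 0 in CD8 cells, 4 between the stages and 0 for the interaction, so the block changed no other call of these genes. In CD8 cells the numbers were not taken as pairs: deviations of same-numbered samples correlated at 0.0897 to 0.363 (mean 0.273), against -0.449 to 0.416 between other numbers, 5 of 10 samples correlated best with their own number, and the block moved the genes called among all from 11 to 31.

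Over 48 fits that each left out 1 sample, 0 of these genes were called in DP cells, 0 in CD8 cells, 4 to 5 between the stages and 0 for the interaction. Small log2 values changed sign in these fits. In DP cells the ranges were -0.013 to 0.082 for *Trp53*, -0.070 to 0.055 for *Mdm2*, -0.20 to 0.25 for *Sesn2*, -0.15 to 0.19 for *Zmat3* and -0.72 to 0.58 for *Perp*. In CD8 cells they were -0.061 to 0.095 for *Trp53*, -0.16 to 0.011 for *Mdm2* and -0.10 to 0.033 for *Mdm4*. Between the stages they were -0.16 to 0.013 for *Mdm2*, -0.29 to 0.13 for *Sesn2*, -1.01 to 0.26 for *Perp* and -0.41 to 0.12 for *Cdkn1a*. For the interaction they were -0.11 to 0.063 for *Trp53*, -0.13 to 0.035 for *Mdm2*, -0.060 to 0.39 for *Sesn2*, -0.40 to 0.89 for *Perp* and -0.19 to 0.44 for *Cdkn1a*. Outside them, *Mdm2* between the stages turned to 0.025 with the replicate block and *Trp53* in CD8 cells to 0.064 without both samples numbered 1, a setting chosen after seeing the data; the cause was not tested. Of 1000 log2 values of single genes under alternatives, 944 were the same, 34 changed sign, 17 lost and 5 gained significance. For fold changes, the same meant an unchanged direction and side of the threshold. The 1000 include ratios of mean levels by TPM and by CPM, for which it meant a move smaller than the spread.

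Counts over all genes moved more. In DP cells they were 17 by edgeR, 160 by DESeq2, 131 with the block, 218 with both (chosen after seeing the data), 74 without a filter, 42 with all 4 groups in 1 fit and 0 to 8 with 1 sample left out. In CD8 cells they were 11 by edgeR, 53 by DESeq2, 63 by DESeq2 with the block, 5 without both samples numbered 1 and 4 to 20 with 1 sample left out. For the interaction they were 13 by edgeR, 3 with upper-quartile normalization, 37 by DESeq2, 33 with the block and 0 to 11 with 1 sample left out. TPM in place of CPM moved no ratio between groups beyond the spread. *Perp*, *Eda2r* and *Phlda3* rest on few counts.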
